A study of Mus musculus with 4 samples.

Results

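The genes described here are 9 of the 32285 in the count matrices: the cytokine genes Il17a, Il17f and Il22, the receptor genes Il23r, Ccr6 and Il17ra, and the transcription factor genes Rora, Ahr and Maf. They were taken by symbol as the cytokines of T helper 17 (Th17) cells and genes that regulate or receive them. Their unique molecular identifiers (UMIs, 1 per captured transcript molecule) were counted in CD4 T cells and γδ T cells, which were picked out by markers that are not among the 9 genes, within T-like clusters. The clustering used variable genes of all kinds, the 9 genes among those it could use. The cells were CD45+ leukocytes sorted from the spinal cord of C57BL/6 mice. The mice had EAE (experimental autoimmune encephalomyelitis), in which immunisation makes T cells attack the central nervous system. In every group the agent was delivered into the cranial cavity on day 9 after immunisation and the tissue was taken on day 16. The control group received Ctrl MO and the other group Reg1-MOs, with 2 single-cell libraries (control 1 and 2, Reg1-MO 1 and 2) in each. The labels give no age, sex or number of mice per library, and they spell out neither abbreviation. Here MO is read as morpholino, an antisense oligonucleotide, and Reg1 as Regnase-1, the RNase encoded by Zc3h12a. Nothing in the labels says that the 2 libraries of a group came from separate animals, so the p-values measure the spread between these libraries, which may be technical.

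Th17 cells are CD4 T cells that make IL-17A, and the nuclear receptor RORα, encoded by Rora, takes part in their differentiation. Interleukin-23 signals through the receptor encoded by Il23r and sustains them. IL-17A and IL-17F bind a receptor that contains the IL-17RA subunit and induce chemokines and other inflammatory genes in the cells that receive them. γδ T cells, which carry another antigen receptor, are a second source of IL-17A in EAE. Regnase-1 is known to cut inflammatory transcripts in myeloid cells and T cells.

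The libraries held 75472324 to 174552218 UMIs, and 26853 cells were used, 4953 to 8080 per library. The median cell had 9948 to 12103 UMIs. Library pairs shared 10 to 78 cell barcodes, which is 0.19% to 0.945% of the smaller library. Without the cells of those barcodes no call on the 9 genes changed. Neutrophil-like cells made up 24.2% of control 1, 36.2% of control 2, 4.94% of Reg1-MO 1 and 18.98% of Reg1-MO 2.

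Il17a and Il17f lie on mouse chromosome 1 (GRCm38, GENCODE M21), Il17a at chr1:20730905-20734496 on the plus strand and Il17f at chr1:20777146-20790617 on the minus strand, with 42649 bases between their ends. Il22 lies on chromosome 10, Rora on 9, Il23r and Il17ra on 6, Ccr6 on 17, Ahr on 12 and Maf on 8. RefSeq promoters (GRCm38.p6) were at hand for 6 of the 9 genes: Il17a, Il17f, Il22, Rora, Il23r and Ccr6. The letters AGGTCA, the core that RORα binds, were searched on both strands in the 250 bases before each start. They stand in 14.0% of 32851 promoters of that length, and in 4 of these 6 genes. The windows are shown because Il17f, Il23r and Ccr6, as described below, were more often detected in the CD4 T cells that held Il17a than in those that did not. Each window is written 5′ to 3′ on the strand of its gene, with the match in capitals (TGACCT is the match read on the other strand).
Il17a: tggttctgtgcTGACCTcatttgaggat
Il17f: agtcagtaaggAGGTCAgtggaaacagg
Il23r, distal: atgaccaccatTGACCTgtttgacttct
Il23r, proximal: aatgaaaatgtAGGTCAgggctctgctg
Ccr6: agtgaaatcatTGACCTagttacataag
The Il17a match begins 120 bases before the start (window chr1:20730774-20730801, plus strand) and the Il17f match 58 bases before it (chr1:20784312-20784339, minus strand, inside the span that GENCODE gives the gene). The Il23r matches begin 229 and 66 bases before the start (chr6:67492068-67492095 and chr6:67491905-67491932, minus strand), and the Ccr6 match 44 bases before it (chr17:8235988-8236015, plus strand). TGCTGA, a part of the site of MAF proteins, stands in 16.1% of promoters and in 3 of the 6 genes (Il17a, where it overlaps the match shown, Il23r and Ccr6). TGANTCA, the site of AP-1 factors, stands in 6.75% of promoters and in 1 of the 6 genes, Il17a. GCGTG, the core that AHR binds, stands in 28.2% of promoters and in 1 of the 6 genes, Rora. A match describes the letters of the window and is no evidence of binding, and its part in the shared detection was not tested.

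The UMIs of Il17a, Il17f, Il22, Rora and Il23r were mostly in T cells. Of 6219 Il17a UMIs, 53.9% were in CD4 T cells and 22.2% in γδ T cells, and of 2395 Il22 UMIs 72.5% were in CD4 T cells and 0.0835% in γδ T cells. Ahr, Maf and Il17ra were held mostly by other cells: CD4 T cells had 5.43% of the Ahr UMIs, 17.2% of those of Maf and 6.00% of those of Il17ra. Macrophage-like cells held 44.4%, 28.5% and 35.1% of these. Of the 762 Ccr6 UMIs, 35.6% were in CD4 T cells and the rest was spread over B, microglia-like, dendritic and other cells. These shares follow the number and depth of the cells of each class: macrophage-like cells numbered 7712 at a median of 15598 UMIs, and CD4 T cells 3630 at 7195. Per UMI the order differed for Maf. It was at 135 to 220 CPM in CD4 T cells, 44.4 to 64.8 in macrophage-like and 69.6 to 124 in microglia-like cells. Microglia-like cells held 31.5% of the Maf UMIs. Pooled over libraries, Ahr (26.8 against 44.5 CPM) and Il17ra (54.5 against 64.5) stayed lower in CD4 T cells than in macrophage-like cells. Conventional dendritic cells had the highest Ahr level, at 180.7 to 330.5 CPM, and 17.8% of its UMIs.

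**Figure D1:**
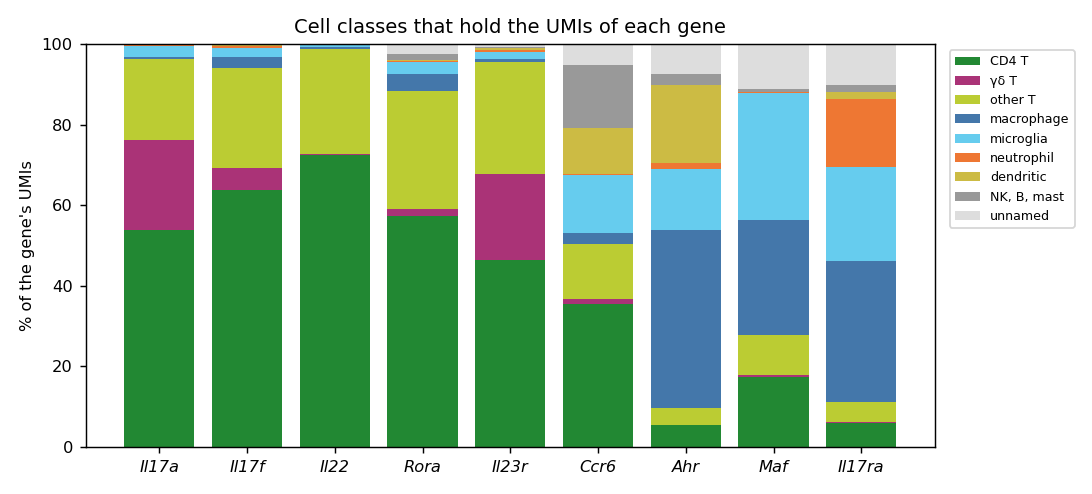
Share of each gene's UMIs (y axis, % of the gene's UMIs over 26853 cells) held by each cell class, stacked to 100%; other T holds CD8 T cells and T cells in neither gate. The bars of the cytokine genes, Rora and Il23r are mostly T cell colours, and those of Ahr, Maf and Il17ra are mostly myeloid colours.

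CD4 T cells were cells of T-like clusters with at least 2 Cd3 UMIs, a Cd4 UMI and no Cd8a, Cd8b1 or Trdc. They numbered 1116 and 624 in control 1 and 2, and 1235 and 655 in Reg1-MO 1 and 2. γδ T cells had at least 2 Cd3 UMIs, Trdc and a Tcrg constant segment, and no Cd4 or Cd8b1. Only 108 were found, 32 in control 1, 6 in control 2, 55 in Reg1-MO 1 and 15 in Reg1-MO 2, so values of γδ T cells in control 2 and Reg1-MO 2 rest on very few cells. The level of Trac set the gates apart. Trac, the constant region of the αβ receptor, was at 810 to 1001 CPM (the UMIs of a gene in a class, scaled so that all genes of that class and library sum to the same fixed total) in CD4 T cells and at 46.7 to 98.7 CPM in γδ T cells. Foxp3, the regulatory T cell factor, and Ncr1, a natural killer cell receptor, were at 0 in γδ T cells. Their marker lists as a whole were not low there. The 4 regulatory T cell markers summed to 3080, 2442, 2601 and 1733 CPM in control 1, control 2, Reg1-MO 1 and Reg1-MO 2. In CD4 T cells they summed to 1345 to 1870 CPM. The 6 natural killer cell markers summed to 196, 321, 102 and 1573 CPM in γδ T cells, against 59.5 to 93.6 CPM in CD4 T cells. Trbc2, a constant segment of the β chain, had a UMI in 83.3% of γδ T cells. Of the CD4 T cells, 337 held a Foxp3 UMI and 3293 did not, and 101 of the 108 γδ T cells lay in 1 cluster, which Il17a and Trdc led and which had Il23r among its 10 leading genes. A missing Foxp3 UMI may reflect depth, since Foxp3 was at 16.5 to 48.5 CPM in CD4 T cells. The cluster with Foxp3 among its 10 leading genes held 802 cells, so CD4 T cells without Foxp3 may include regulatory T cells.

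Il17a was carried by few CD4 T cells, and its molecules were concentrated in a handful of these. Its CD4 level was 80.4 CPM in control 1, 154 in control 2, 27.6 in Reg1-MO 1 and 290 in Reg1-MO 2. Reg1-MO 1 was thus the lowest library and Reg1-MO 2 the highest, and the groups overlapped. The positive cells numbered 31, 20, 29 and 36, or 2.78%, 3.21%, 2.35% and 5.50% of CD4 T cells (95% Wilson interval of the last 3.996% to 7.515%, counting error only). In neutrophil-like cells, which do not make IL-17A by their usual account, the share was 0.0919%, at a median of 6100 UMIs per cell against 7195 in CD4 T cells. A single CD4 T cell held up to 129, 267, 61 and 446 Il17a UMIs in the 4 libraries, and the 3 richest cells held 46.0%, 78.2%, 52.2% and 59.2% of each library's CD4 Il17a. A change in the CD4 level therefore turns on a handful of cells in each library. The log2 fold change, Reg1-MO over control, was 0.39 ± 0.83 (SE; edgeR adjusted p = 0.886). None of the fits that left a library out called it: it was -2.08 when Reg1-MO 2 was dropped, -0.04 for control 1, 1.27 for Reg1-MO 1 and 0.90 for control 2, with -0.26 when the replicate number was a block.

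γδ T cells carried Il17a far more often. Their level was 1056 CPM in control 1, 1258 in control 2, 2762 in Reg1-MO 1 and 1916 in Reg1-MO 2, so both Reg1-MO libraries lay above both controls. The positive cells were 15 of 32, 3 of 6, 36 of 55 and 8 of 15, or 46.9%, 50.0%, 65.5% and 53.3%, in the same order. With every cell thinned to 3000 UMIs the shares were 40.6%, 50.0%, 58.3% and 53.3%. The exact permutation test over the 4 libraries gave p = 0.333 for the shares, which is the smallest that 2 against 2 libraries allow. Reg1-MO over control, the log2 fold change was 1.07 ± 0.31, with an unadjusted p of 0.00166 and an edgeR adjusted p of 0.471, so Il17a was not called in γδ T cells either. It was called without control 1 (1.10, adjusted p = 0.0027) and without control 2 (1.13, 0.0025), fits in which the lone control library is assumed to vary like the Reg1-MO libraries, and not without either Reg1-MO library (0.82 and 1.34, adjusted p of 0.999 and 1.0). A single γδ T cell held 46 of the 51 Il17a UMIs in control 2, and a single cell 173 of the 263 in Reg1-MO 2. The difference between the γδ and CD4 fold changes was 1.47 ± 0.51 (adjusted p = 0.991). It was called without control 1 (2.06, adjusted p = 1.5e-05) and with a γδ gate that did not ask for a Tcrg segment (1.57, 0.0378), and it turned to -0.48 when Reg1-MO 1 was left out and to 3.48 for Reg1-MO 2 (0.0769).

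Il17f, the close relative of Il17a, was rare. CD4 T cells held 35, 65, 27 and 117 Il17f UMIs in 7, 2, 10 and 12 cells of control 1, control 2, Reg1-MO 1 and Reg1-MO 2, and in control 2 a single cell had 63 of the 65. The levels were 3.71, 13.3, 2.70 and 21.7 CPM, so the groups overlapped. The positive share, 0.627%, 0.321%, 0.810% and 1.83%, did not overlap between groups (exact permutation p = 0.333), against 0.0367% in neutrophil-like cells. In the same order CD8 T cells had 0.445%, 0%, 0.698% and 0.403%, a range that covers the CD4 shares of both controls. Macrophage-like cells, which were deeper, had 0%, 0.329%, 0.0350% and 0.0813%. In the order of the libraries the CD4 levels of Il17f ranked as those of Il17a did, with Reg1-MO 1 lowest and Reg1-MO 2 highest. Reg1-MO over control gave a log2 fold change of 0.50 ± 0.89 (edgeR adjusted p = 0.866), and it turned to -1.56 without Reg1-MO 2 and to -0.32 without control 1. γδ T cells held 21 Il17f UMIs in 6 cells, 16 of them in control 1 and none in control 2, where 0 of 6 cells allows a share of cells with a UMI of up to 50.0% (a floor of 3 counts).

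Il22, a cytokine that acts on epithelial and other non-haematopoietic cells, was detected in CD4 T cells and in 1 of 108 γδ T cells. CD4 T cells held 580, 41, 364 and 752 Il22 UMIs in 24, 10, 29 and 20 cells, at 61.4, 8.37, 36.4 and 140 CPM in control 1, control 2, Reg1-MO 1 and Reg1-MO 2. Control 2 was low and the groups overlapped. Between treatments the log2 fold change was 1.16 ± 0.77 (edgeR adjusted p = 0.608), 3.31 without control 1 (0.0711) and -0.03 without Reg1-MO 2. Of the alternatives run it was called where no filter on low counts was used (1.15). The positive share, 2.15%, 1.60%, 2.35% and 3.05%, was higher in both Reg1-MO libraries (exact permutation p = 0.333), but the groups overlapped after thinning to 3000 UMIs (1.91%, 0.987%, 1.41% and 2.48%). Only 2 Il22 UMIs were found in γδ T cells, both in 1 cell of Reg1-MO 2. Without the cells of barcodes that libraries share, the count was 0. The other γδ T cells had none, and 0 of 55 in Reg1-MO 1 allows, by the same floor, a share of cells with a UMI of up to 5.46%. This does not limit the share that express the gene.

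The 3 cytokines were not carried by the same CD4 T cells to the same degree. Of 3630 CD4 T cells, 116 held Il17a, 31 Il17f and 83 Il22, and 194 (5.34%) held any of them. Il17f stood with Il17a: 20 of the 31 Il17f-positive cells also held Il17a. Of the 83 Il22-positive cells 15 also held Il17a, which 3.20% of all CD4 T cells held, and 10 of these 15 came from Reg1-MO 2. In Reg1-MO 1 none of 29 Il22-positive cells held Il17a. All 3 transcripts were found together in 7 cells, 5 of them from Reg1-MO 2. Among γδ T cells all 6 Il17f-positive cells held Il17a.

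**Figure D2:**
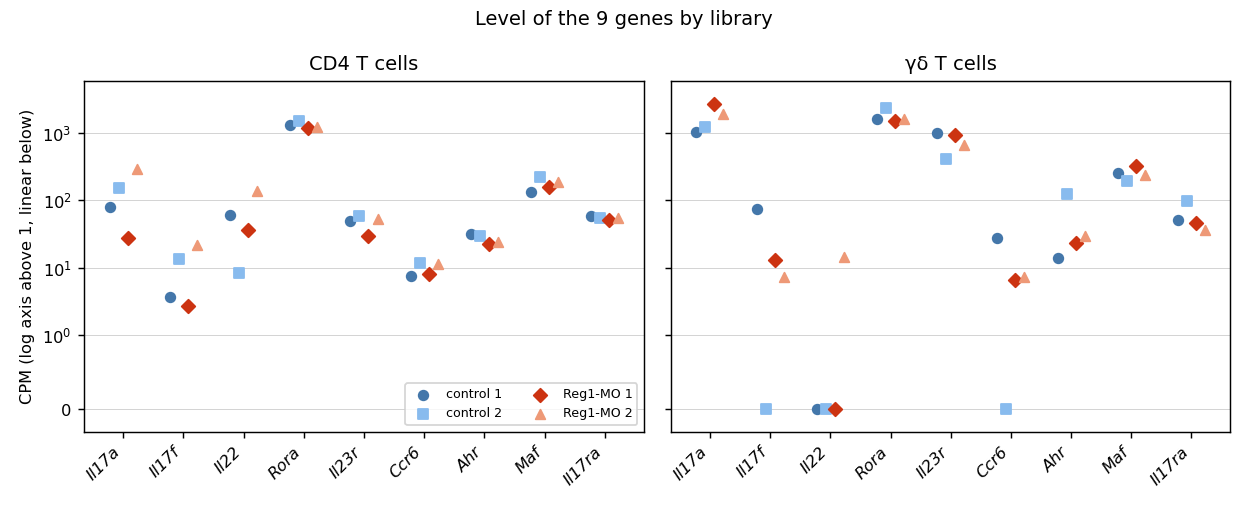
Level of the 9 genes (y axis, CPM, log above 1 and linear below) in CD4 T cells (left) and γδ T cells (right), with 1 point per library. The Il17a and Il23r points of γδ T cells lie above all those of CD4 T cells, and the 3 cytokine genes spread most between CD4 libraries. CPM is not corrected for transcript length, so levels are compared between cells and not between genes.

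The Il17a-positive CD4 T cells differed from the rest in the other genes they carried, as described in cells without Foxp3 (109 with Il17a, 3184 without). These shares describe cells of the same 4 libraries and carry no test, and the positive cells were deeper (median 9055 against 7127 UMIs). Il17f was found in 17.4% of the Il17a-positive cells and 0.346% of the others. Il23r was found in 49.5% against 11.3%, and Ccr6, a chemokine receptor that guides Th17 cells to CCL20, in 17.4% against 1.85%. In each of the 4 libraries these 3 genes were more frequent among Il17a-positive cells. Ahr, a receptor for small aromatic ligands, was at 26.6% against 11.1%, and Maf at 64.2% against 45.1%. Rora was found in 100% against 96.9%, too near to all cells for the share to tell them apart, and the log2 ratio of its CPM was 0.18, -0.23, 0.23 and 0.66 in control 1, control 2, Reg1-MO 1 and Reg1-MO 2. Csf2, which encodes GM-CSF, was found in 42.2% against 17.6%, while Ifng, the cytokine of Th1 cells, was lower in Il17a-positive cells (33.0% against 45.9%), in all 4 libraries. In γδ T cells Il23r was found in 87.1% of 62 Il17a-positive and 78.3% of 46 Il17a-negative cells.

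**Figure D3:**
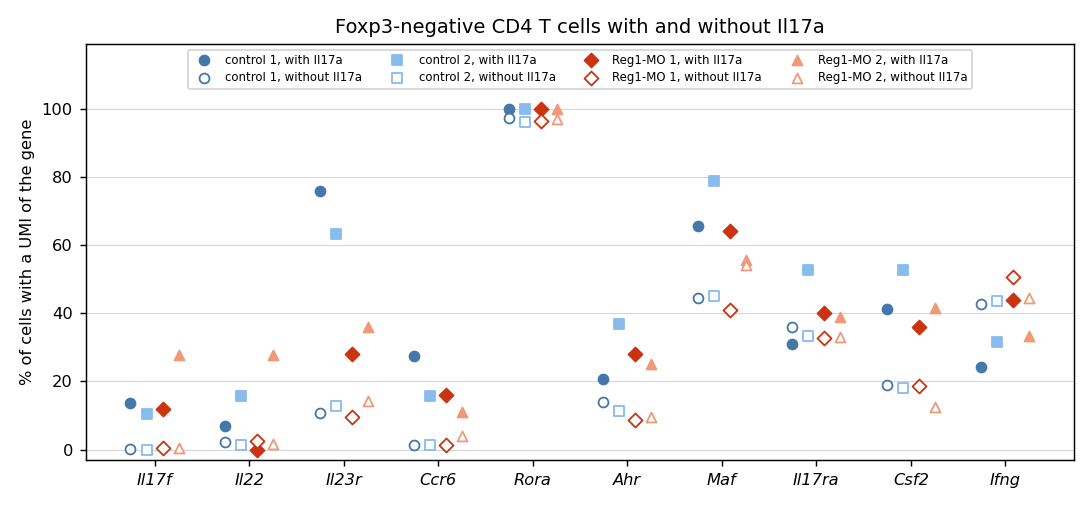
Share of Foxp3-negative CD4 T cells with a UMI of each gene (y axis, %), in cells with Il17a (filled) and without it (open), 1 point per library. Filled points of Il17f, Il23r and Ccr6 lie above the open ones in each library, and those of Ifng lie below.

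The genes whose pattern was most like that of Il17a were ranked by the lowest, over the 4 libraries, of the log2 ratio of CPM in Il17a-positive over Il17a-negative CD4 T cells without Foxp3. The ranking covered 3260 genes with at least 10 UMIs in the positive cells of every library. Among the 10 highest were Ablim3, Tff1, Il23r, Cysltr1, Il1r2, Tmem176a, Il1r1, Tmem176b and Plcb4, with a lowest log2 ratio from 2.86 (Ablim3) to 1.15 (Plcb4). Il23r was thus the only one of the 9 genes among them, at log2 ratios of 3.03, 2.55, 1.76 and 1.93 in control 1, control 2, Reg1-MO 1 and Reg1-MO 2. Il1r1, the signalling receptor of interleukin-1, was detected in 85.3% of the Il17a-positive cells and 34.4% of the others, and Il1r2, its decoy receptor, in 67.9% and 29.4%. Il17f and Ccr6 did not reach 10 UMIs in every library and were not ranked. Their log2 ratios ran from 3.05 to 7.71 and from 1.40 to 3.78. Il22 had no steady pattern, from -5.29 in Reg1-MO 1 to 3.88 in Reg1-MO 2.

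Il23r was the gene that most set γδ T cells apart among the receptors. The γδ level was 1019, 419, 950 and 677 CPM in control 1, control 2, Reg1-MO 1 and Reg1-MO 2, and the CD4 level 49.5, 58.2, 29.8 and 53.5 CPM. It was found in 90 of 108 γδ T cells (83.3%) and in 431 of 3630 CD4 T cells (11.9%), against 0.129% of neutrophil-like cells. Between treatments the groups overlapped in both kinds of cell. The log2 fold change was -0.42 ± 0.24 in CD4 T cells (edgeR adjusted p = 0.546; -0.05 without Reg1-MO 1, -0.86 without Reg1-MO 2) and 0.12 ± 0.40 in γδ T cells (adjusted p = 1.0; 1.16 without control 1, -0.33 without control 2). The difference between these fold changes, 0.75 ± 0.47, was called only without control 1 (1.93, adjusted p = 0.0142).

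Ccr6 was low in CD4 T cells, at 7.63, 11.6, 8.09 and 11.3 CPM in control 1, control 2, Reg1-MO 1 and Reg1-MO 2. The groups overlapped and the log2 fold change was 0.00 ± 0.28 (edgeR adjusted p = 0.997). Left-out libraries moved it between -0.32 (without control 1) and 0.29 (without control 2). The positive shares of CD4 T cells, 2.78%, 3.37%, 3.16% and 5.04%, overlapped between groups. After thinning to 3000 UMIs they did not, with the Reg1-MO libraries higher (1.55%, 1.48%, 1.83% and 2.80%, exact permutation p = 0.333). γδ T cells held 9 Ccr6 UMIs in all. The level in B and plasma cells was 84.0 to 118 CPM, above every CD4 library.

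Among the transcription factors Rora was the most even. In CD4 T cells it was at 1341 and 1527 CPM for control 1 and 2 against 1213 and 1257 CPM for Reg1-MO 1 and 2, so both Reg1-MO libraries lay below both controls. The log2 fold change was -0.23 ± 0.10, with an unadjusted p of 0.0492 and an edgeR adjusted p of 0.424. It was found in 95.1% to 97.4% of CD4 T cells and 83.3% to 100% of γδ T cells, where it was at 1516 to 2393 CPM, against 1.42% of neutrophil-like cells. After thinning, its CD4 shares did not overlap between groups (90.2%, 90.5%, 86.6% and 89.4%). Nor did its γδ shares, where the Reg1-MO libraries were higher (81.25%, 83.3%, 95.8% and 93.3%). Ahr was lower in both Reg1-MO libraries as well. Its CD4 level was 31.6 and 30 CPM for control 1 and 2, against 22.5 and 23.8 CPM for Reg1-MO 1 and 2. The positive cells were 14.3%, 13.3%, 10.7% and 11.3%, or 7.83%, 7.57%, 4.90% and 5.75% after thinning, without overlap (exact permutation p = 0.333). Neutrophil-like cells had 2.96%, or 1.65% after thinning. The log2 fold change of Ahr was -0.44 ± 0.13, with an unadjusted p of 0.00947 and an edgeR adjusted p of 0.304, and it stayed between -0.48 and -0.40 when any 1 library was left out. Maf, a leucine zipper factor that drives Il10 and Il21 in T helper cells, was at 135, 220, 157 and 186 CPM in CD4 T cells, with overlapping groups and a log2 fold change of -0.06 ± 0.21 (adjusted p = 0.933). It moved to -0.38 without control 1 and to 0.32 without control 2. Rora, Ahr and Maf each overlap an annotated gene on the opposite strand (Gm15511, Gm48236 and Gm15655) that the matrices also count. Whether the counting used strand is not given in the sources used here, so reads of each pair may be split.

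In CD4 T cells none of the 9 genes was called between treatments, where 0.0973% of 11302 genes were (11 genes). At an unadjusted p under 0.05 there were 2 of the 9, Rora and Ahr, where 11.7% of all genes were. Among γδ T cells 4 of the 9 genes had enough counts to be tested, and none was called where 0.0589% of 3395 genes were. At an unadjusted p under 0.05 there was 1 of the 4, Il17a, where 3.33% of all genes were. DESeq2 called none of those for which it gave an adjusted p, where it called 1.57% of 5167 genes in CD4 T cells and 0.0295% in γδ T cells. The difference between γδ and CD4 fold changes was called for none of the 9, where 0.125% of 10380 genes were called. An adjusted p above the threshold with 2 libraries a group does not show that the genes were alike, as approximate intervals show. These were set from the SE by a normal distribution, without allowance for the few libraries behind the SE. They are therefore narrower than 95% intervals of the F-test would be. For CD4 Il17a the approximate interval of the log2 fold change ran from -1.24 to 2.02, and for CD4 Il17ra from -0.35 to 0.07.

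**Figure D4:**
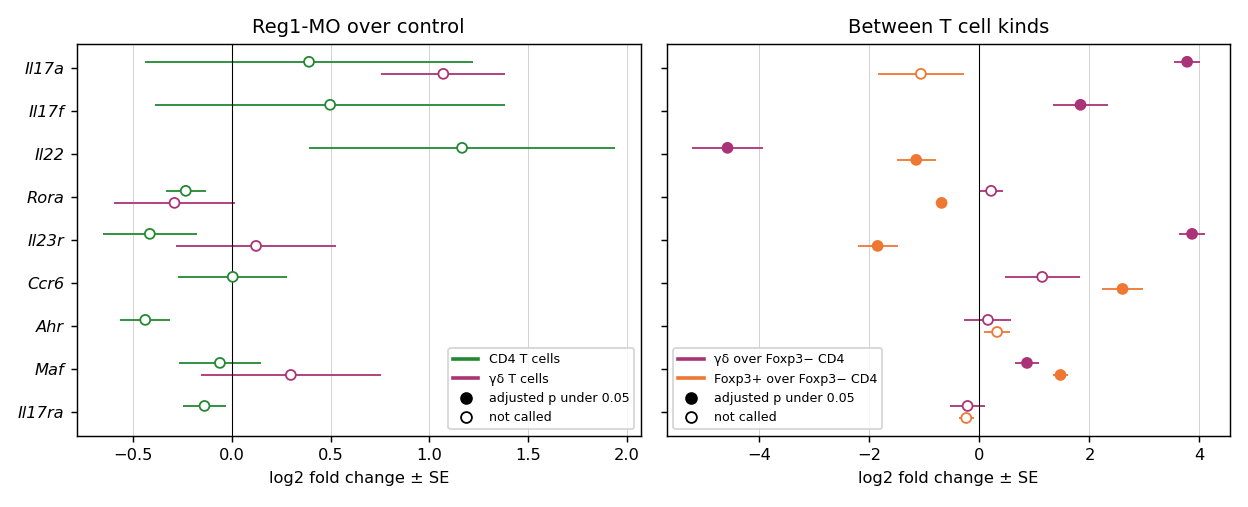
Log2 fold changes ± SE of the 9 genes, Reg1-MO over control in CD4 and γδ T cells (left) and between kinds of T cell (right); filled points have an adjusted p under 0.05 and genes with too few counts have no point. No point on the left is filled, and on the right Il23r, Il17a, Il17f and Maf are filled above 0 for γδ T cells, where Il22 rests on 2 γδ UMIs.

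Between kinds of T cell the 9 genes differed widely. Over CD4 T cells without Foxp3, with the library as a block, γδ T cells were higher in 4 of the 9 genes and lower in 1, where 4.80% and 4.35% of 9348 genes were called each way (9.16% in all). Il17a had a log2 fold change of 3.78 ± 0.24, 2.83 without Reg1-MO 1 and 4.36 without Reg1-MO 2. Il23r had 3.86 ± 0.23, from 3.40 to 4.21 over the left-out libraries. In each of the 4 libraries the γδ levels of both genes lay above the CD4 levels. Il22 was lower: pooled over libraries it was at 61.8 CPM in CD4 T cells without Foxp3 and at 2.87 CPM in γδ T cells, a ratio of 21.5 (exact Poisson interval 5.96 to 178, from the 2 γδ UMIs). Maf had 0.86 ± 0.22 (edgeR adjusted p = 0.00168), but 0.73 without control 1 (0.162) and 0.52 without Reg1-MO 1 (0.526). Il17f had 1.84 ± 0.51 (0.00494). This was -0.02 when control 1 was left out (0.997), 2.14 for control 2 (0.116), 1.65 for Reg1-MO 1 (0.188) and 2.81 for Reg1-MO 2, and control 1 held 16 of the 21 γδ UMIs. Rora (0.21 ± 0.21), Ahr (0.15 ± 0.43), Ccr6 (1.14 ± 0.68) and Il17ra (-0.22 ± 0.32) were not called. In this fit edgeR pooled the quasi-likelihood spread over all genes, so its smallest p-values do not use how far Il17a itself varied between CD4 libraries. Over the left-out libraries the highest adjusted p was 0.00031 for Il17a and 1.58e-08 for Il23r, both without control 2. With T cells taken by markers alone, without the clusters, Il17a (3.42, 0.00321) and Il23r (3.56, 2.19e-05) were called, and Il17f (1.52, 0.347) and Maf (0.45, 0.365) were not.

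Foxp3-positive CD4 T cells, which comprise regulatory T cells, had another set of the 9 genes. They numbered 46, 70, 150 and 71 in control 1, control 2, Reg1-MO 1 and Reg1-MO 2. The Foxp3-negative cells may include regulatory T cells without a Foxp3 UMI. Of 8 genes tested against Foxp3-negative cells of the same libraries, 2 were higher and 3 lower, where 11.7% and 9.77% of 9848 genes were called each way (21.5% in all). Ccr6 was at 67.6, 42.8, 32.7 and 16.6 CPM in Foxp3-positive cells and at 4.04, 7.22, 3.97 and 10.5 CPM in Foxp3-negative cells, so the positive cells were higher in every library. Its log2 fold change was 2.60 ± 0.37 (edgeR adjusted p = 8.52e-05; 2.14 to 3.14 over left-out libraries). Maf had 1.47 ± 0.14 (1.4e-06), at 330, 618, 423 and 312 CPM against 123, 164, 112 and 167 CPM. Rora had -0.69 ± 0.09 (2.52e-05) and Il23r -1.85 ± 0.36 (0.00146), or -3.08 without Reg1-MO 1. Il22 had -1.15 ± 0.35 (0.0283), -0.75 without control 1 (0.0561) and -1.38 without Reg1-MO 2 (0.0573) and -0.98 with markers alone (0.218). Il17a was not called (-1.06 ± 0.78, adjusted p = 0.4), with 52, 1, 115 and 0 UMIs in Foxp3-positive cells. It was called without Reg1-MO 1 (-2.70, adjusted p = 0.0105), when thinned to 3000 UMIs (-1.76, 0.0137) and with no filter on low counts (-1.12, 3.81e-12), and was -0.04 without Reg1-MO 2. Ahr and Il17ra were not called (0.32 ± 0.23 and -0.24 ± 0.14).

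Il17ra, the receptor subunit for IL-17A and IL-17F, was found in all the named classes. In neutrophil-like cells it was at 89.1, 108, 113 and 113 CPM in control 1, control 2, Reg1-MO 1 and Reg1-MO 2. Macrophage-like cells had 72.3, 90.5, 44.1 and 63.1 CPM and microglia-like cells 59.3, 60.2, 47.0 and 64.4 CPM. CD4 T cells had 58.7, 54.7, 50.4 and 54.4 CPM. The lowest level was that of mast cells and basophils in the controls (21.1 and 27.6 CPM) and of migratory dendritic cells in the Reg1-MO libraries (6.88 and 9.80 CPM). The neutrophil-like level lay above the macrophage-like level in each library, while the CD4 and microglia-like levels overlapped. Both Reg1-MO libraries lay below both controls in macrophage-like, CD4 T, γδ T, natural killer, and B and plasma cells. The same held for conventional, migratory and plasmacytoid dendritic cells. The groups overlapped in CD8 T cells, microglia-like cells, and mast cells and basophils. In macrophage-like cells the log2 fold change was -0.55 ± 0.20 (unadjusted p = 0.0400, edgeR adjusted p = 0.232). The summed level of the 9 neutrophil markers, none at 0, was also lower there, at 1892 and 2582 CPM for control 1 and 2 against 1050 and 1212 CPM for Reg1-MO 1 and 2, and its part in the Il17ra value was not tested. Different clusters held the macrophage-like cells of the groups: the one led by Vcan had 369 and 396 cells of control 1 and 2 against 95 and 122 of Reg1-MO 1 and 2, and the one with Cxcl9 among its leading genes 528 and 135 against 1165 and 628. In neutrophil-like cells both Reg1-MO libraries lay above both controls, with 0.33 ± 0.13 (unadjusted p = 0.0281, adjusted p = 0.228). Microglia-like cells had -0.12 ± 0.20 (adjusted p = 0.996). Of the 519 microglia-like cells of control 2, 486 lay in a cluster with no microglia marker among its 10 leading genes, which held 10 to 13 cells of each other library, so microglia-like values of control 2 rest on other clusters than those of the rest.

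Of the 9 genes, 4 were tested in macrophage-like, 4 in neutrophil-like and 6 in microglia-like cells, and none was called. Among all genes edgeR called 0% of 13517 in macrophage-like cells (2737 genes at an unadjusted p under 0.05, and 762 called by DESeq2), 2.3% of 10656 in neutrophil-like cells and 0% of 13447 in microglia-like cells (343 genes at an unadjusted p under 0.05, and 4 called by DESeq2). Macrophage-like Il17ra was called only with no filter on low counts (-0.57, adjusted p = 0.0074). Ahr in neutrophil-like cells (0.92 ± 0.42, adjusted p = 0.295) was called with no filter (0.0252) and without control 1 (1.75, 0.002). Microglia-like cells held 2 Il17a UMIs in the controls and 172 in the Reg1-MO libraries (unadjusted p = 0.0146, adjusted p = 0.996). Of those 172 UMIs, 155 were in 6 cells that also held at least 2 Cd3 UMIs, and 83 were in a single cell of Reg1-MO 2. Cells that hold transcripts of both kinds may be doublets, and their part in this value was not tested.

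**Figure D5:**
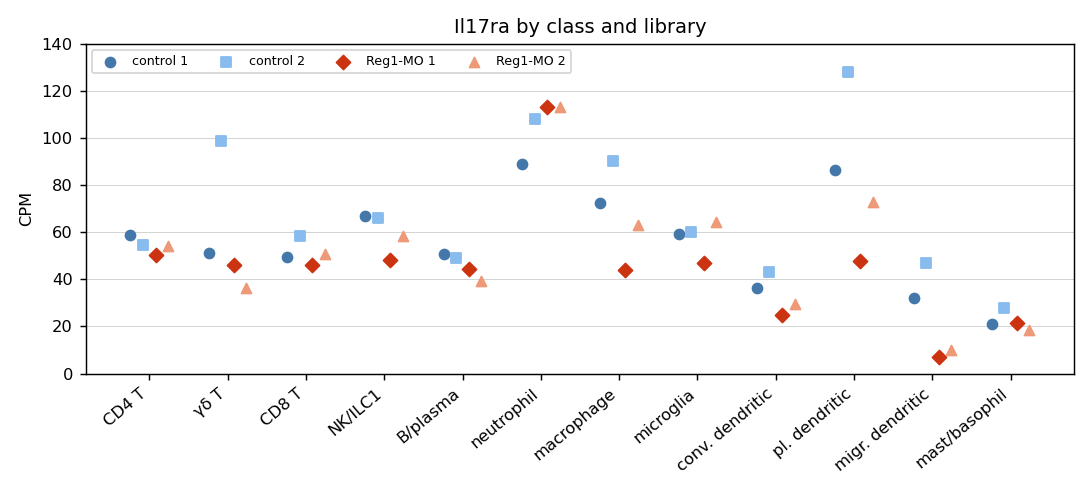
Il17ra level (y axis, CPM) in 12 classes of cells, 1 point per library. Neutrophil-like points lie between 89.1 and 113 CPM, and the Reg1-MO points of macrophage-like cells lie below both control points, as do those of several other classes.

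The γδ T cells were also read for their receptor segments, since subsets of them are known by these. Trdv4 was found in 36 of 108 cells (9, 2, 21 and 4 in control 1, control 2, Reg1-MO 1 and Reg1-MO 2), and 31 of these 36 held Il17a. Of the 72 without a Trdv4 UMI 31 held Il17a. Trgv2 was found in 34 cells and Tcrg-V6 in 9. A missing segment may reflect depth, so this is a description.

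A list of 30 further genes of the Th17 programme was read in the same fits. In CD4 T cells 28 were tested and 0 called between treatments (7 at an unadjusted p under 0.05, where 11.7% of all genes were), with a median log2 fold change of -0.10 against 0.00 over all genes. The most abundant of the list were Hif1a, an oxygen-sensing factor (-0.09 ± 0.12, adjusted p = 0.805), and Il18r1, the interleukin-18 receptor (-0.27 ± 0.10, adjusted p = 0.382). In γδ T cells 18 were tested and 0 called (0 at an unadjusted p under 0.05; median 0.07 against 0.01), the most abundant being Cd163l1, a scavenger receptor of γδ T cells (0.20 ± 0.33), and Runx1 (-0.11 ± 0.35). In macrophage-like cells 25 were tested and 0 called (13 at an unadjusted p under 0.05, where 20.2% of all genes were; median 0.69 against -0.01), in microglia-like cells 25 and 0 (median 0.03 against 0.01), and in neutrophil-like cells 21 and 1. That 1, where 2.3% of all genes were called, was Socs3, a brake on cytokine signalling. It was at 0.94 ± 0.15 (edgeR adjusted p = 0.0187, or 0.0523 when thinned). The summed level of the 10 T cell markers in macrophage-like cells, none at 0, was 19.1 and 13.8 CPM for control 1 and 2 against 33.2 and 49.7 for Reg1-MO 1 and 2, and its part in the list's median there was not tested. The difference between γδ and CD4 fold changes was called for 0 of 29.

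Between kinds of T cell the same list moved in both directions. γδ T cells were higher than Foxp3-negative CD4 T cells in 8 of 28 genes and lower in 6. Of all genes 4.80% and 4.35% were called each way, and the list's median was 0.30 against -0.07. Among the highest were Sox13, Blk and Cd163l1, which are also markers of γδ T cells. Sox13 had 57 UMIs in γδ T cells and 0 in CD4 T cells, at least 722-fold higher against a floor of 3 counts over the group. Blk and Cd163l1 had log2 fold changes of 9.79 ± 0.34 and 6.08 ± 0.25. The lowest were Tnfsf11, which encodes RANKL (-4.00 ± 0.33), Ifng (-3.18 ± 0.28), Csf2 (-2.53 ± 0.29) and the interleukin-21 receptor gene Il21r (-1.74 ± 0.29). Foxp3-positive cells were higher than Foxp3-negative ones in 9 of 27 genes and lower in 14 (median -0.30 against 0.00). Of all genes 11.7% and 9.77% were called each way. The largest rises were in Il10 (4.02 ± 0.35), the interleukin-6 receptor genes Il6st (2.73 ± 0.17) and Il6ra (2.32 ± 0.24), and Gpr65 (1.13 ± 0.14), a proton-sensing receptor. Il21 had 137 UMIs in Foxp3-negative and 0 in Foxp3-positive cells, at least 5.71-fold lower by the same floor. Tnfsf11 (-2.57 ± 0.16), Csf2 (-2.39 ± 0.31; -3.43 to -2.02 over left-out libraries) and Cd163l1 (-2.24 ± 0.39) were lower too.

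A list of 25 genes was read in the cells that receive IL-17. It held receptors of the IL-17 family, genes that transmit or control their signal, and genes that IL-17 is known to induce. In macrophage-like cells 19 were tested and 0 called (7 at an unadjusted p under 0.05, where 20.2% of all genes were; median 0.44 against -0.01). The most abundant were Cebpb, a leucine zipper factor, at 2274 and 1969 normalised CPM for control 1 and 2 against 2950 and 2822 for Reg1-MO 1 and 2 (0.44 ± 0.15, adjusted p = 0.22), and the neutrophil chemokine gene Cxcl2 (0.68 ± 0.21, adjusted p = 0.207). In neutrophil-like cells 1 of 16 was called, where 2.3% of all genes were (median 0.26 against -0.02). This was Cxcl3, a related chemokine, at 8.94 and 9.14 normalised CPM for control 1 and 2 against 17.1 for both Reg1-MO libraries. Its log2 fold change was 0.92 ± 0.18 (edgeR adjusted p = 0.0297), not called without Reg1-MO 2 (0.16), with DESeq2 (0.0606) or when thinned (0.139). In microglia-like cells 0 of 18 were called (median 0.06 against 0.01). The genes of the interleukin-23 subunits, Il12b and Il23a, were not called in macrophage-like cells (2.42 ± 1.18 and 1.38 ± 0.45) or microglia-like cells (2.12 ± 1.34 and 0.60 ± 0.97), and Il23a was not called in neutrophil-like cells (-0.41 ± 0.62). Of the other 4 cytokine genes of the IL-17 family only Il17c could be tested, in microglia-like cells (-0.23 ± 1.09, adjusted p = 0.999).

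In CD4 T cells the same list gave 2 lower genes of 18 tested, where 0.0973% of all genes were called (median -0.09 against 0.00). They were S100a8 and S100a9, which encode calprotectin. S100a8 was at 184, 231, 84.3 and 80.0 normalised CPM and S100a9 at 228, 253, 93.3 and 105 (log2 fold changes -1.33 ± 0.13 and -1.28 ± 0.11, adjusted p of 0.023 and 0.0219). Both are neutrophil markers, and the summed level of all 9 neutrophil markers in CD4 T cells was 544 and 607 CPM for control 1 and 2 against 233 and 239 for Reg1-MO 1 and 2, with none of the 9 at 0. The part of neutrophil transcripts in this result was not tested. The calls were lost without Reg1-MO 1 (adjusted p of 0.115 and 0.104), without Reg1-MO 2 (0.136 and 0.109), with no doublet removal (0.106 and 0.254) and with markers alone (0.274 and 0.305). In γδ T cells 1 of 9 was lower, Cxcl2, at 104, 573, 23.0 and 17.2 normalised CPM (-3.62 ± 0.71, adjusted p = 0.0244), not called with DESeq2 (-3.96, 0.0821), without control 2 (-2.30, 0.628), without Reg1-MO 1 (-3.94, 0.125) or without Reg1-MO 2 (-3.55, 0.543). It was -0.96 and not called when T cells were taken by markers alone. The neutrophil markers summed to 542, 419, 178 and 233 CPM in the γδ T cells of the same libraries, with 3 of the 9 at 0, and their part was not tested. Between kinds of T cell the list gave 3 higher and 1 lower of 15 in γδ T cells, where 4.80% and 4.35% of all genes were called. It gave 2 higher and 5 lower of 14 in Foxp3-positive cells, where 11.7% and 9.77% of all genes were.

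Zc3h12a itself was not called in any class tested. Its CD4 level was 103, 106, 98.4 and 114 CPM in control 1, control 2, Reg1-MO 1 and Reg1-MO 2, with a log2 fold change of 0.00 ± 0.10 (edgeR adjusted p = 0.994). It had -0.20 ± 0.55 in γδ T cells, in macrophage-like cells -0.02 ± 0.12, in microglia-like cells -0.57 ± 0.41 and in neutrophil-like cells 0.45 ± 0.13 (adjusted p = 0.108). A morpholino can block translation without lowering the transcript, and the labels give no target site, so the transcript does not check the treatment.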

How the data were processed

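Cells of the 4 libraries were profiled with 10x Genomics 3′ chemistry. The deposited matrices hold raw UMI counts per gene and barcode, written by Cell Ranger, whose version per the file headers was 5.0.1. The build mm10 and Seurat 4.0 are named in the submitters' processing notes. The counting settings used were not given in the sources used here. Barcodes under 500 UMIs, under 200 genes or over 10% mitochondrial UMIs were dropped. Scrublet's automatic threshold marked 0, 0, 390 and 1 cells, so the highest-scoring cells were removed instead (534, 359, 635 and 217). Cells were clustered by the Leiden method (scanpy 1.11.5) and clusters named from marker lists with the suffix "-like". Members and lists were chosen with earlier results of these data known.

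Class sums of UMI counts in each library were tested with edgeR 4.0.16 (TMM, filterByExpr minimum count 10, quasi-likelihood F-test, Benjamini-Hochberg over all genes tested, call at 0.05). Class contrasts had the library as a block. DESeq2 1.42.0 was an alternative. Shares of cells were compared by two-sided exact permutation, unthinned and thinned to 3000 UMIs. Wilson intervals (95%) and floors of 3 counts cover counting error only. Named genes are the 9 members, Zc3h12a, the 10 genes most like Il17a (1 of them is not reported here), and of each list up to 4 called genes each way by fold or, with none called, the 2 highest. Genes of the IL-17 response list called in T cells (S100a8, S100a9, Cxcl2) and the genes with an unadjusted p under 0.05 were named after their values were seen. The tests were tried on simulated counts. Same-numbered libraries deviated together in microglia-like cells (correlation 0.519) and little in the other classes (0.004 to 0.089). The median microglia-like cell had 40311.5 and 42488.5 UMIs in control 1 and Reg1-MO 1. It had 13464 and 16604.5 in control 2 and Reg1-MO 2. The labels do not say what a number stands for, so numbers were not taken as pairs and the replicate block was an alternative.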

Additional observations from a re-analysis of the deposited data

Results flagged for a closer look

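Cxcl2 was the gene of the lists read here whose treatment difference differed between γδ and CD4 T cells. The log2 fold change in γδ T cells minus that in CD4 T cells was -3.403 ± 0.753 (interaction term in edgeR, adjusted p = 0.00924). In the γδ T cells of control 1, control 2, Reg1-MO 1 and Reg1-MO 2 it was at 91.6, 399, 20.5 and 13.9 normalised CPM, and in the CD4 T cells at 31.8, 24.1, 35.9 and 18.1. The γδ value of control 2 rests on 6 cells. In this fit the spread was pooled over all genes. The call was lost without control 2 (-2.20), without Reg1-MO 1 (-3.06), without Reg1-MO 2 (-3.53), with the replicate block (-3.17), when thinned (-4.79) and with markers alone (-1.56).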

How the results depend on the processing

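With 2 libraries a group, 6 and 15 γδ T cells in 1 library of each group, and Il17a and Il22 carried by a few cells per library, the treatment differences of the cytokine genes have little precision. The alternatives were another scaling (RLE), no filter on low counts, DESeq2, a replicate block, each library left out, no doublet removal, thinning, other gates and, chosen after seeing the data, leaving out shared barcodes. In CD4 T cells 11 genes were called between treatments, and 506 with no filter, 81 with DESeq2, 7 without shared barcodes, 7 with a gate that did not ask for Cd4, 0 without doublet removal and 0 with markers alone (1 to 237 over left-out libraries). In γδ T cells the 2 calls became 6 with RLE, 14 with no filter, 1 with DESeq2, 1 without shared barcodes, and 0 when thinned, with markers alone or without the Tcrg requirement (1 to 151 over left-out libraries). Macrophage-like calls went from 0 to 2261 with no filter and 762 with DESeq2 (0 to 1271 over left-out libraries), neutrophil-like calls from 245 to 792 with no filter and 71 when thinned (92 to 765), and microglia-like calls from 0 to 4 with DESeq2 (0 to 0). γδ over CD4 T cells had 536 calls when thinned (406 to 832 over left-out libraries), the Foxp3 contrast 1520 to 1900 over left-out libraries, and the interaction 2 when thinned and 42 with markers alone (1 to 62).

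Same-numbered libraries share only a number in the labels. The replicate block gave 17 calls in CD4 T cells and 7 in the interaction, and turned CD4 Il17a to -0.264 and the interaction of Ahr to -0.041.

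The following log2 fold changes, none called in the main fit unless said, reversed. CD4 Ccr6 was -0.001 with RLE, -0.008 with DESeq2, -0.015 without doublet removal and -0.047 with markers alone, and CD4 Maf was 0.017 when thinned. With markers alone Cebpb was -0.127 and Cxcl2 -0.321 in Foxp3-positive over Foxp3-negative cells, and Cebpb -0.073, Cxcl2 -0.177 (the 4 called in the main fit) and Rora -0.076 in γδ over CD4 T cells, where Ahr was -0.714 when thinned. The interaction of Ahr was -0.017 with RLE, -0.119 without shared barcodes and -0.412 without the Tcrg requirement, and that of Il22 -0.071 when thinned and -0.430 without shared barcodes. Of the differences in positive shares (percentage points), CD4 Il23r was 0.795 at 5000 UMIs, CD4 Maf -0.849 at 2000, γδ Maf 5.134 at 5000, γδ Ccr6 -1.562 at 3000 and γδ Rora -15.949 with markers alone. The causes of these changes were not tested.

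Leaving out 1 library at a time, where the lone library is assumed to vary like the other group, gave ranges that crossed 0. In CD4 T cells these were -0.315 to 0.286 for Ccr6, -2.079 to 1.269 for Il17a, -1.561 to 1.535 for Il17f, -0.026 to 3.311 for Il22 and -0.383 to 0.316 for Maf. Il23r ran from -0.33 to 1.164 in γδ T cells and Il17ra from -0.271 to 0.015 in microglia-like cells. In γδ over CD4 T cells Ahr ran from -0.245 to 0.584, Ccr6 from -0.118 to 1.635 and Il17f from -0.021 to 2.813. In the interaction Ahr ran from -1.489 to 1.316, Ccr6 from -2.286 to 7.863, Il17a from -0.476 to 3.481, Il17f from -4.817 to 8.991 and Maf from -0.17 to 1.322. Of the shares, in percentage points, CD4 Il17a ran from -0.643 to 2.505, Rora from -1.538 to 0.806, Il23r from -3.109 to 1.84 and Maf from -2.486 to 7.902. γδ Il17f ran from -0.189 to 6.061, Rora from -1.818 to 14.848, Il23r from -0.739 to 33.636, Ccr6 from -1.098 to 5.152, Ahr from -22.121 to 4.962, Maf from -27.879 to 3.371 and Il17ra from -23.939 to 1.061.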

Other observations

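Among Foxp3-negative CD4 T cells that held Il17a, the share that also held Il23r was lower in both Reg1-MO libraries, a comparison made after its values were seen. It was 75.9% of 29 cells in control 1, 63.2% of 19 in control 2, 28.0% of 25 in Reg1-MO 1 and 36.1% of 36 in Reg1-MO 2, so the groups did not overlap. The difference was -37.4 percentage points (two-sided exact permutation p = 0.333, the smallest that 2 against 2 libraries allow). Thinned to 3000 UMIs the shares were 65.5%, 36.8%, 16% and 22.2%, again without overlap. The median depth of these cells moved the same way, at 10726, 10291, 8114 and 8676 UMIs. In the same cells Maf did not overlap either (65.5%, 78.9%, 64.0% and 55.6%), but it did after thinning. Ahr overlapped before thinning and not after it, with the Reg1-MO libraries higher (6.90%, 10.5%, 12% and 16.7%). Il17f, Il22, Rora, Ccr6 and Il17ra overlapped between groups both before and after thinning. Groups of 2 libraries without a difference would often separate in this way, as the exact permutation p of 0.333 shows. How many of all genes separate so was not worked out, so these shares are a description. The Il17a-positive cells were unlike in their Il17a too. They held a mean of 24.4, 39.7, 6.44 and 43.3 Il17a UMIs in control 1, control 2, Reg1-MO 1 and Reg1-MO 2.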
